A study of Mus musculus with 12 samples.

Results

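The H19 and Igf2 locus is a pair of neighbouring imprinted genes on mouse chromosome 7, described here by its DNA methylation in germ cells, in the stem cells from which germ-cell-like cells were made, and in those derivatives. Its members were the files' rows for the 2 genes in every gene class, together with the CpG islands and island shores lying between the genes or within 5 kb of either. That rule used no measured value. It gave 11 of 176831 rows, of which 2 belonged to H19 (promoter and exons), 5 to Igf2 (promoter, 5′ UTR, exons, introns and 3′ UTR), and 4 were islands or shores. The 2 genes were among 30073 gene identifiers.

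Reduced representation bisulfite sequencing (RRBS), which reads methylation in DNA cut at CCGG by the enzyme MspI, was carried out on 6 groups of 2 libraries each, all of strain C57BL6. The groups were female embryonic stem cells (ESC), parthenogenetic embryonic stem cells (pESC), primordial germ cells of embryonic day 9.5 and day 12.5 (E9.5 PGC and E12.5 PGC), and germ-cell-like cells induced from either kind of stem cell (ESC-PGCLC and pESC-PGCLC). According to the study's methods, the ESC lines came from fertilized embryos of mice carrying an Actin-GFP transgene. The pESC lines came from activated oocytes of females with the same transgene and so had no father. Induction passed through 2 days with bFGF and Activin A and 4 days with BMP4, SCF, EGF and LIF, after which CD61 and SSEA1 double-positive cells were sorted. The germ cells came from female embryos and were likewise selected on surface markers. The labels do not state whether the libraries of a group came from separate lines, cultures or embryos, so that p-values measure only the spread between these libraries, which may be technical. No RNA was measured in these libraries, and the cell labels were not checked against marker expression.

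H19 is a long non-coding RNA transcribed from the maternal chromosome, and its transcript also carries the microRNA miR-675. Igf2 encodes a fetal growth factor and is transcribed from the paternal chromosome. In body cells the choice is made at an imprinting control region upstream of H19, which sperm transmit methylated and oocytes unmethylated. On the unmethylated maternal copy the zinc-finger protein CTCF binds and insulates Igf2 from enhancers beyond H19, whereas methylation of the paternal copy prevents that binding and also silences the H19 promoter. Primordial germ cells erase such parental marks on their way to the gonad and while colonizing it, before the marks are laid down anew according to sex.

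In the GENCODE M21 annotation of GRCm38 (mm10), H19 (ENSMUSG00000000031) occupies chr7:142575529-142578143 and Igf2 (ENSMUSG00000048583) occupies chr7:142650766-142666816, both on the minus strand and 72622 bases apart. Mir675, the precursor of miR-675, lies inside H19. Mir483, a microRNA gene, and the antisense gene Igf2os lie inside or across Igf2, as does Gm49394, an overlapping protein-coding model, so that rows of Igf2 may share cytosines with rows of these genes. The imprinting control region, as annotated by RefSeq, spans chr7:142580248-142582833, between 2105 and 4690 bases upstream of the H19 start. It has 66 CpGs and 4 MspI sites. No island or shore row lay over it. The files do not define the promoter class, but the share of genes with a promoter row dropped from 12.2% when the nearest upstream MspI site lay 1800 to 2000 bases from the start to 2.48% at 2000 to 2200 bases, so that the H19 promoter row was taken as the 2 kb upstream of the start, chr7:142578144-142580143. The control region itself was therefore not measured by any of the 11 rows. That 2 kb has 49 CpGs and 4 MspI sites, the farthest of them 834 bases from the start, and RRBS could read it only near the gene.

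**Figure D1:**
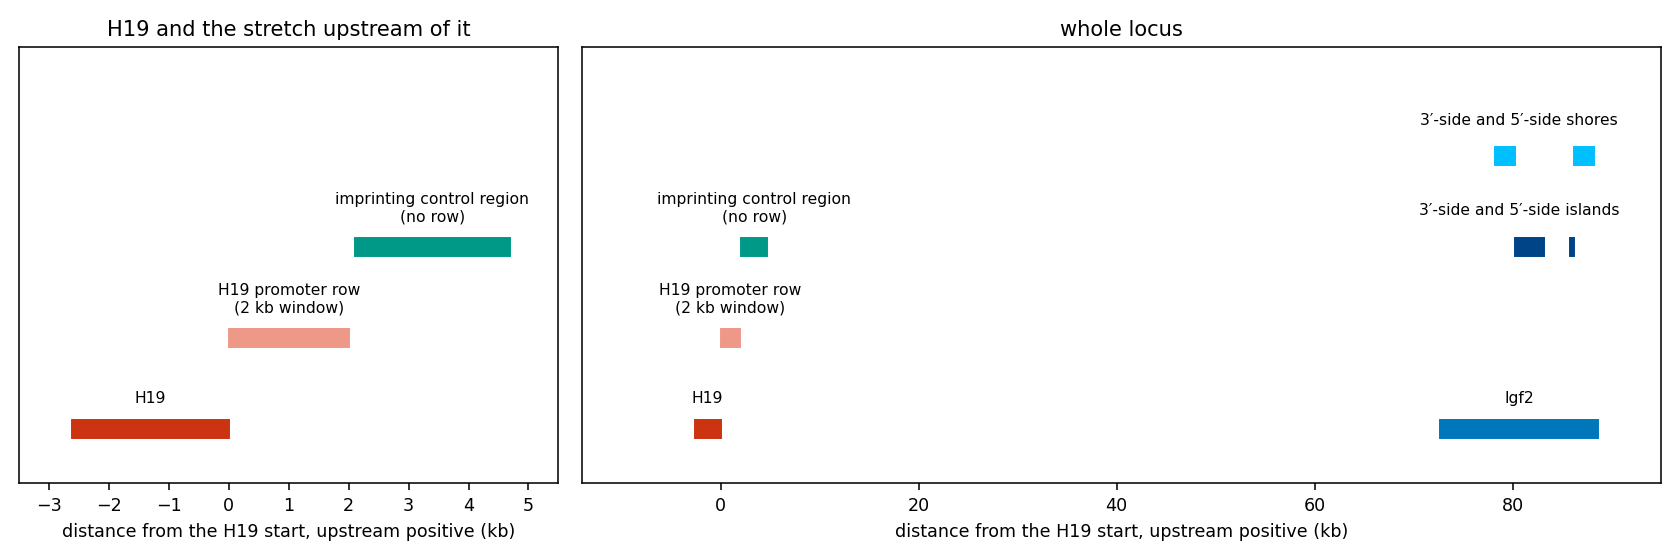
Map of the locus with distance from the H19 start in kb, upstream positive, drawn to scale; the left panel enlarges H19 and the sequence upstream of it, and the right panel shows both genes with the islands and shores of Igf2. The imprinting control region begins 2105 bases upstream of H19, beyond the 2 kb taken as the promoter row, and has no row of its own.

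The sequences behind these positions are given on the minus strand, 5′ to 3′, from GRCm38. The 4 CTCF sites of the control region annotated by RefSeq are shown first because they carry the locus's imprint and lie outside every measured row. Capitals mark the stretch that fits the pattern GNTNCCGCNNGGNGGCAG, which was derived from the 4 sites themselves, so that all 4 hold it by construction. CTCF site m1 lies at chr7:142582026-142582073, m2 at chr7:142581782-142581826, m3 at chr7:142580756-142580803 and m4 at chr7:142580301-142580347.
CTCF site m1: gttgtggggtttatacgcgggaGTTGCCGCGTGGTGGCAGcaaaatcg
CTCF site m2: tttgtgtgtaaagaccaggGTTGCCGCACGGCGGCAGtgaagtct
CTCF site m3: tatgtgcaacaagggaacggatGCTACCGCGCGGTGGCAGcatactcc
CTCF site m4: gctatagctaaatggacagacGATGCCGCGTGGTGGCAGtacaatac
Between 2 and 3 CpGs fall within the capitals of each site, and none of the 4 sites holds an MspI site. Searched on both strands, the pattern was in 2 of 22085 windows of 2 kb upstream of genes with a promoter row (0.00906%) and in 1 of 32851 RefSeq promoters in the reference table (0.00304%). It was in neither the H19 window, the Igf2 gene, the islands nor the shores, and in none of 4 RefSeq promoters of Igf2. These matches describe letters and not binding.

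The H19 promoter row rested on MspI fragments such as the following pair, with each CpG in capitals. The fragment nearest the gene lies at chr7:142578164-142578244 and the farthest at chr7:142578767-142578977, both intergenic and each with 5 CpGs. Which fragments were sequenced in which library is not given in the sources used here.
H19 upstream, nearest fragment: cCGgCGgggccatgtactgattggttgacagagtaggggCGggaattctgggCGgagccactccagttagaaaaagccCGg
H19 upstream, farthest fragment: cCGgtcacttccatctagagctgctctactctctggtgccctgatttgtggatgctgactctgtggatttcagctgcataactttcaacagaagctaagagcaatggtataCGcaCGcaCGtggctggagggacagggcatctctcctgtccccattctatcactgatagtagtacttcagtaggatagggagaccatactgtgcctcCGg

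Igf2 holds both CpG islands and both shores, which are named here by the end of the gene they face. Their rows may share cytosines with the gene rows of Igf2, so that counts of locus rows are not counts of independent measurements. The 3′-side island lies at chr7:142658372-142661318 and the 5′-side island at chr7:142663910-142664388, with 7.84 and 11.7 CpGs per 100 bases. The shores, at chr7:142656370-142658370 and chr7:142664388-142666389, have 1.85 and 1.25 CpGs per 100 bases. A fragment of the 5′-side island, intronic in Igf2 at chr7:142664190-142664279 with 16 CpGs in 90 bases, is printed beside the 250 bases before an Igf2 transcript start that lies in the 3′-side shore, chr7:142657497-142657746 with 6 CpGs, to show how CpG-dense the islands are against the shores.
5′-side island fragment: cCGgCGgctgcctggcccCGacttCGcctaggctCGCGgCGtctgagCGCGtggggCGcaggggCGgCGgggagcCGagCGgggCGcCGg
Igf2 start in the 3′-side shore: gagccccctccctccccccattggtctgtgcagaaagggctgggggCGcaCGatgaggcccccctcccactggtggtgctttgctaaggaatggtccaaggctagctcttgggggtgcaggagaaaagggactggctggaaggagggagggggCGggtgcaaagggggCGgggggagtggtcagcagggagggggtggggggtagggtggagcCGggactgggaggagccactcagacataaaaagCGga

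The H19 promoter was at an intermediate methylation level in every library. It was 60.3% and 61.6% in ESC, 52.6% and 39.9% in pESC, 69.4% and 57.1% in E9.5 PGC, 41.0% and 47.8% in E12.5 PGC, 56.2% and 57.6% in ESC-PGCLC, and 55.2% and 47.8% in pESC-PGCLC. The highest library was an E9.5 PGC library and the lowest a pESC library, and libraries of one group lay up to 12.7 points apart. By group mean the order was E9.5 PGC (63.3% ± 8.74, SD, n = 2), ESC (61.0% ± 0.941), ESC-PGCLC (56.9% ± 1.01), pESC-PGCLC (51.5% ± 5.25), pESC (46.3% ± 8.98) and E12.5 PGC (44.4% ± 4.80). Neighbours in this order overlapped, except that the ESC libraries lay above the ESC-PGCLC libraries and these above the pESC-PGCLC libraries. The median promoter was nearly unmethylated, at 3.17% to 6.46% in each library, and H19 ranked between the 77.6th and the 97.5th percentile of them.

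The exons of H19, which include the body of the non-coding RNA, had a level in 10 of 12 libraries. They were at 59.8% and 48.1% in ESC, 55.3% and 54.5% in pESC, 75% and 72.0% in E9.5 PGC, 55.6% and 71.6% in E12.5 PGC, 33.0% in the ESC-PGCLC library that had a level, and 70% in the pESC-PGCLC library that had one. The lone ESC-PGCLC value was the lowest of all libraries, and the E9.5 PGC values the highest.

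**Figure D2:**
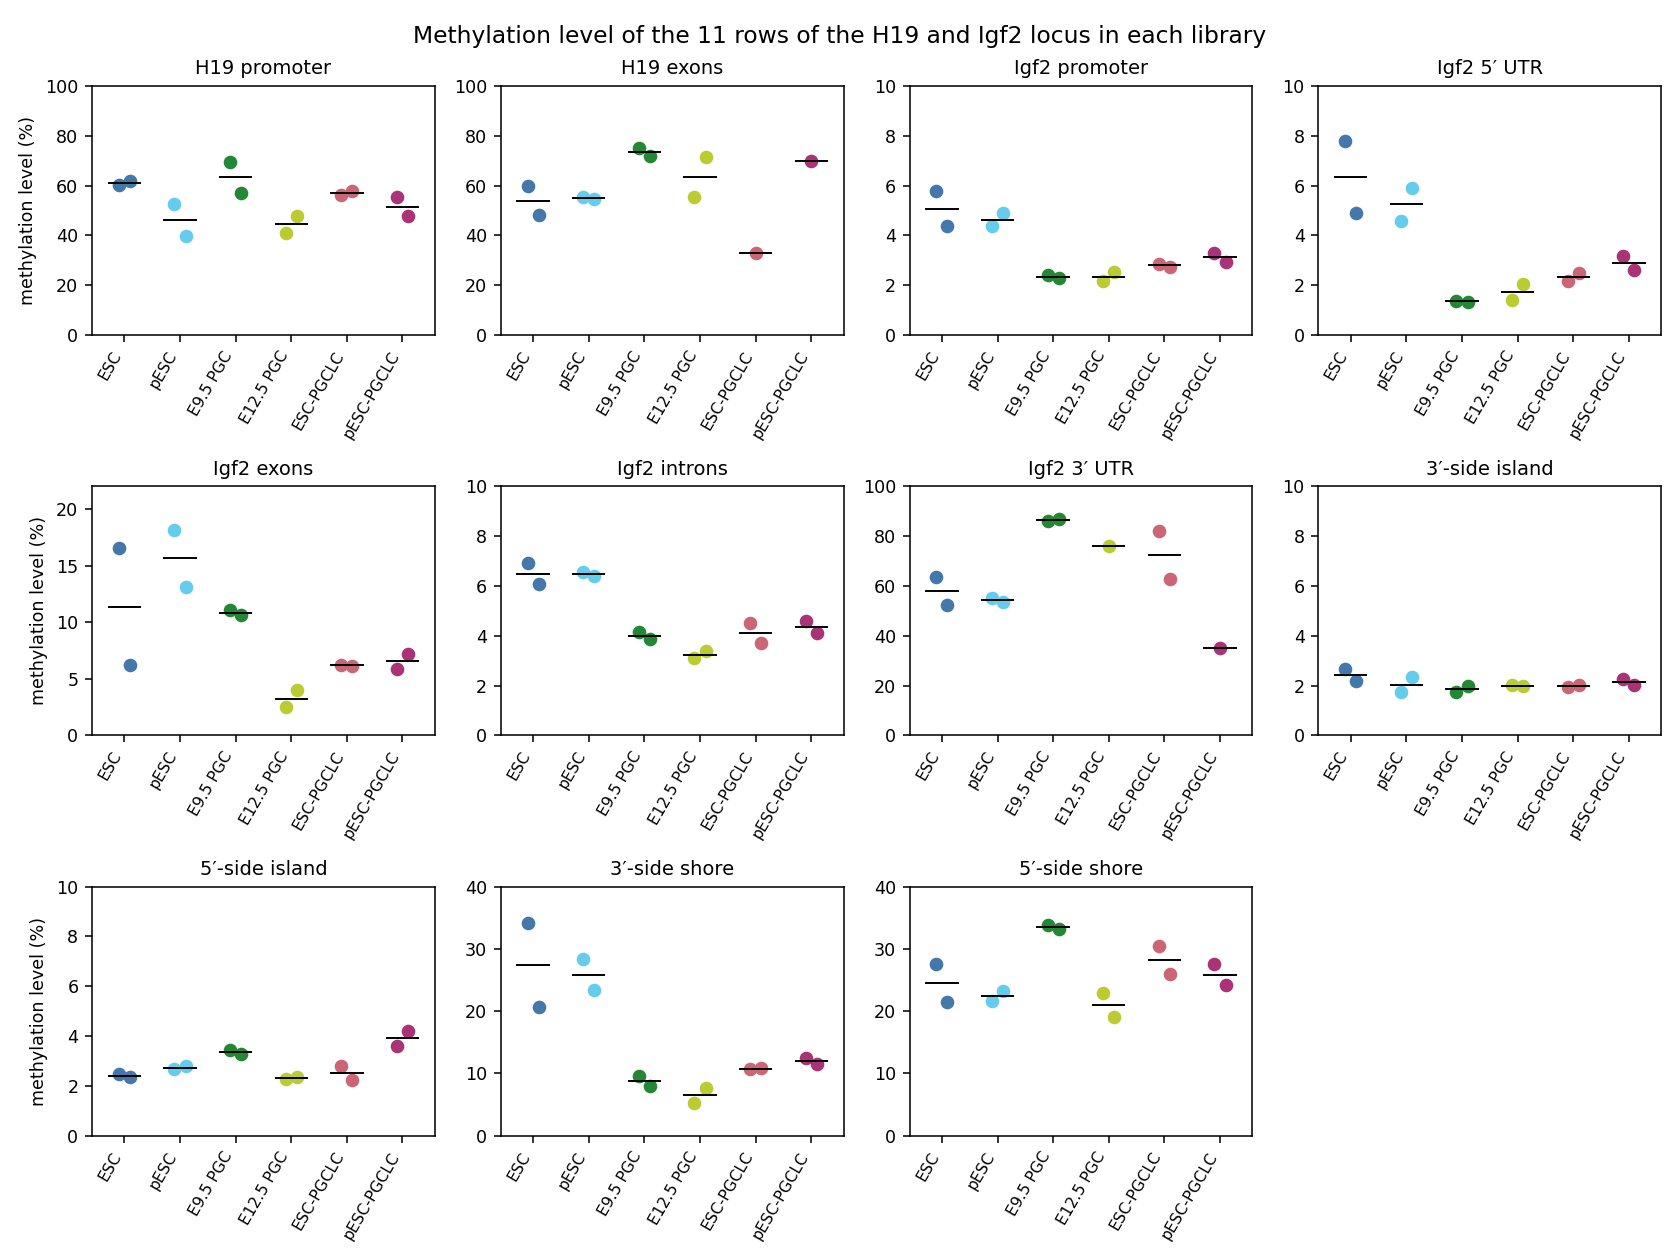
Methylation level in percent of each of the 11 rows in each library, by group; points are libraries and bars are group means of the libraries with a level. The H19 promoter lies between 39.9% and 69.4% throughout, the Igf2 islands at or below 4.21%, and the 3′-side shore is higher in the 4 stem cell libraries than in the 8 others.

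Igf2 combined a weakly methylated promoter and islands with a methylated 3′ end. The promoter, whose transcript starts the files do not specify, lay between 2.15% and 5.78%, with ESC at 5.78% and 4.36%, pESC at 4.38% and 4.88%, and every germ cell or germ-cell-like library at or below 3.30%. It ranked between the 26.9th and the 58.4th percentile of promoters, on the lowly methylated side of the class in all but the stem cells. The 5′ UTR was likewise highest in the stem cells, at 7.77% and 4.89% in ESC, 4.57% and 5.91% in pESC, 1.38% and 1.31% in E9.5 PGC, 1.41% and 2.03% in E12.5 PGC, 2.16% and 2.48% in ESC-PGCLC, and 3.18% and 2.62% in pESC-PGCLC. Introns lay between 3.09% and 6.93% against class medians between 22.6% and 49.9%, so that Igf2 introns were below the middle of their class in every library.

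The exons of Igf2 were at 16.5% and 6.17% in ESC, 18.2% and 13.1% in pESC, 11.1% and 10.6% in E9.5 PGC, 2.49% and 3.97% in E12.5 PGC, 6.23% and 6.15% in ESC-PGCLC, and 5.83% and 7.22% in pESC-PGCLC. The ESC libraries spanned more than any other group, and the E12.5 PGC libraries were lowest. The 3′ UTR, with a level in 10 libraries, was the most methylated row of the gene. Methylation is common in this class, with library medians between 33.9% and 70.2%. Among 3′ UTRs that of Igf2 ranked between the 23.9th and the 99.3rd percentile. The Igf2 3′ UTR was at 63.5% and 52.2% in ESC, 55.2% and 53.4% in pESC, 86% and 86.7% in E9.5 PGC, 76% in the E12.5 PGC library with a level, 82.2% and 62.9% in ESC-PGCLC, and 35% in the pESC-PGCLC library with a level.

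The islands stayed nearly unmethylated, between 1.74% and 2.68% on the 3′ side and between 2.26% and 4.21% on the 5′ side. The 3′-side shore was at 34.2% and 20.6% in ESC and 28.5% and 23.3% in pESC, but at 9.66% and 8.07% in E9.5 PGC, 5.29% and 7.67% in E12.5 PGC, 10.7% and 10.9% in ESC-PGCLC, and 12.5% and 11.6% in pESC-PGCLC. No stem cell library overlapped a germ cell or germ-cell-like library in this shore. Its percentile among all shores was 81.1 to 83.4 in the stem cells and 49.8 to 63.5 in the other libraries. The 5′-side shore was at 27.6% and 21.4% in ESC, 21.7% and 23.2% in pESC, 33.8% and 33.2% in E9.5 PGC, 22.9% and 19.1% in E12.5 PGC, 30.5% and 26.0% in ESC-PGCLC, and 27.5% and 24.2% in pESC-PGCLC. Here the E9.5 PGC libraries were the highest, above every other library.

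**Figure D3:**
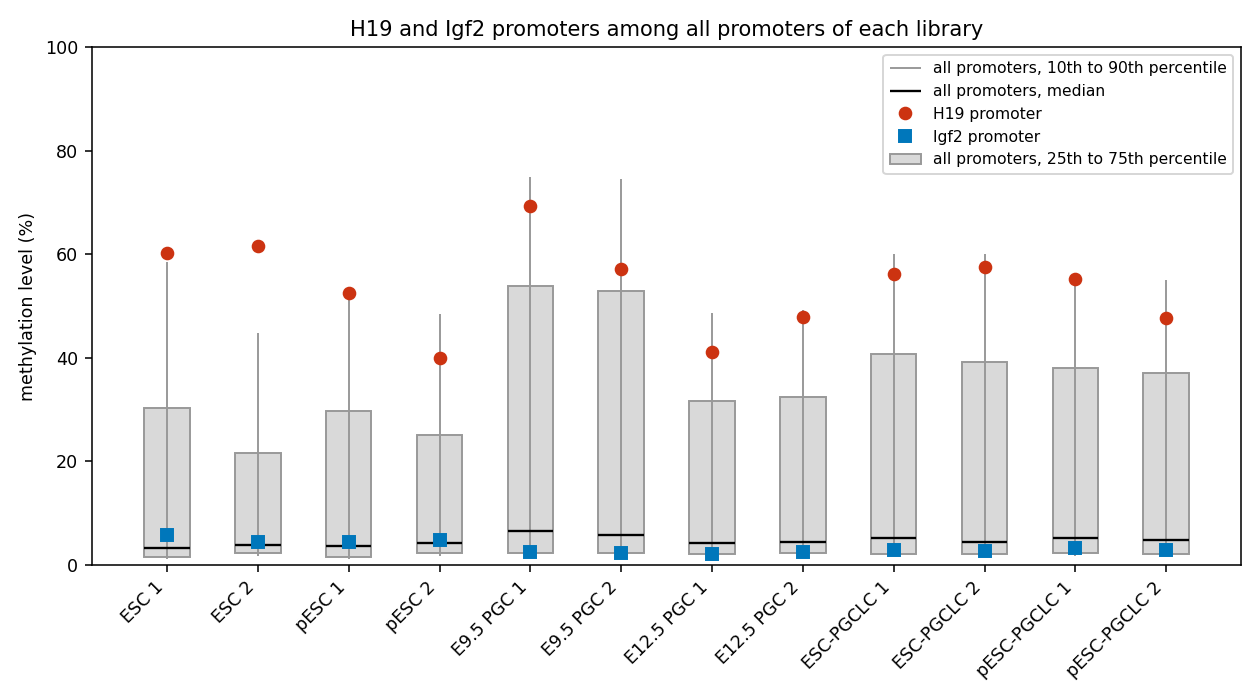
The H19 and Igf2 promoter levels in percent in each library; boxes are the quartiles of all promoters of that library, black lines their medians and thin lines the outer percentiles given in the key. H19 lies at or above the 77.6th percentile of promoters in each library, and Igf2 between the 26.9th and the 58.4th.

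Levels were then compared between groups with limma on log2 odds of methylation, across all rows with a level in every library of the fit. A row was called at a Benjamini-Hochberg adjusted p under 0.05 with a difference of group means of at least 10 points of percent methylation. The deposited levels carry no read counts, and the depth of coverage of each row is unknown. With 2 libraries against 2, an exact permutation test of a single row, two-sided, cannot go below p = 0.333 and was not used.

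The comparison of pESC with ESC asked whether stem cells without a paternal genome differed at the locus, where the paternal copy is the one normally methylated. Both pESC libraries were below both ESC libraries at the H19 promoter, with a difference of -14.7 points in the means, yet the 95% interval on the log2 odds scale ran from -1.75 to 0.06 and the adjusted limma p was 1. Of the 11 rows 0 were called, 0 had an unadjusted p under 0.05, and 0% of 148012 rows were called anywhere, although 2054 of them had an unadjusted p under 0.05. For the Igf2 promoter, exons and introns, as for both shores, pESC and ESC libraries overlapped. Without pESC replicate 2, the lower library, the H19 difference was -8.37 points, and without pESC replicate 1 it was -21.1 points. The difference at the H19 promoter therefore did not pass the test. As the test called 0 rows anywhere, failing it cannot show that the groups are alike. The unadjusted limma p of the H19 promoter was 0.0623, and it was between 0.0246 and 0.0686 under the other settings that kept every library.

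Between E9.5 and E12.5, when primordial germ cells are known to lose methylation across the genome, the locus lost methylation at the H19 promoter and at the 5′-side shore of Igf2. The H19 promoter fell by 18.8 points (-1.10 on the log2 odds scale, SE 0.288, adjusted p = 0.0170). The 5′-side shore fell by 12.5 points (-0.90, SE 0.170, adjusted p = 0.00416), with both E12.5 PGC libraries below both E9.5 PGC libraries in either row. These were 2 of the 9 locus rows with a level in all 8 libraries of the fit, against 49.6% of 137202 rows called in all, 68002 of them lower. After each library was shifted to a median of 0 (centring), 46256 of 63589 called rows were higher on the log2 odds scale. The locus rows had a median difference of -1.04 points and all rows one of -11.5 points. Igf2 exons were lower by 7.61 points (adjusted p = 0.000571), under the 10-point minimum, and the 5′-side island was lower by 1.04 points (adjusted p = 0.0293, and 0.0778 to 0.115 with any 1 of the 4 libraries left out). The H19 call rested on single libraries. Without E9.5 PGC replicate 1 the log2 odds difference was -0.72 (adjusted p = 0.0635), and without E12.5 PGC replicate 1 it was -0.90 (adjusted p = 0.0935). The median of all rows moved by -0.864 on the log2 odds scale, and after centring the H19 difference was 0.02 and that of the 5′-side shore 0.22 on that scale, neither of them below 0. In points, centred separately, the H19 difference was -2.83 and that of the shore 3.47, so that the sign for H19 depended on the scale.

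The PGCLCs were compared with both stages of PGC to place them along this decline. Against E9.5 PGC the H19 promoter was lower by 6.33 points in ESC-PGCLC (adjusted p = 0.349) and was lower by 11.8 points in pESC-PGCLC (adjusted p = 0.0932). Against E12.5 PGC it was higher by 12.5 points in ESC-PGCLC (adjusted p = 0.110) and by 7.05 points in pESC-PGCLC (adjusted p = 0.413). None of the 4 differences passed the test. Those against E9.5 PGC depended on which E9.5 PGC library was used. Without E9.5 PGC replicate 1, the higher library, they were -0.15 points in ESC-PGCLC and -5.59 points in pESC-PGCLC, and without replicate 2 they were -12.5 and -17.9 points. The difference of pESC-PGCLC from E12.5 PGC was 3.65 points without E12.5 PGC replicate 1, 3.34 points without pESC-PGCLC replicate 1 and 10.8 points without pESC-PGCLC replicate 2. Of the 9 rows tested, 0 were called in each of these comparisons. Over all rows the called share was 29.8% for ESC-PGCLC and 40.3% for pESC-PGCLC against E9.5 PGC, and 22.8% and 7.10% against E12.5 PGC. For pESC-PGCLC against E9.5 PGC the H19 promoter passed the call without E9.5 PGC replicate 2 (-1.07 on the log2 odds scale, adjusted p = 0.0226) and not without replicate 1 (-0.32, adjusted p = 0.381).

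Smaller differences at Igf2 passed the adjusted p in these comparisons but not the 10-point minimum. Compared with E9.5 PGC, Igf2 exons were lower by 4.65 points in ESC-PGCLC (adjusted p = 0.0198) and were lower by 4.32 points in pESC-PGCLC (adjusted p = 0.0221). They were higher than in E12.5 PGC by 2.97 points (adjusted p = 0.0210) and 3.30 points (adjusted p = 0.0391), respectively. These 4 differences of the exons were not past the threshold in one fit of all 12 libraries (adjusted p = 0.187, 0.199, 0.211 and 0.340). Those from E9.5 PGC also missed it without either E9.5 PGC library (adjusted p between 0.0678 and 0.0889). The 3′-side shore was higher than in E12.5 PGC by 4.30 points in ESC-PGCLC (adjusted p = 0.0264) and 5.53 points in pESC-PGCLC (adjusted p = 0.0350). The 5′ UTR, at 1.35% ± 0.0507 in E9.5 PGC, was higher by 0.976 points in ESC-PGCLC (adjusted p = 0.0364) and by 1.55 points in pESC-PGCLC (adjusted p = 0.00704). The 5′-side shore differed by -7.64 points between pESC-PGCLC and E9.5 PGC (adjusted p = 0.0451) and was higher by 7.29 points in ESC-PGCLC than in E12.5 PGC (adjusted p = 0.04995), and the 5′-side island was 1.57 points higher in pESC-PGCLC than in E12.5 PGC (adjusted p = 0.0365). Of the 11 differences in this paragraph, the 5′ UTR of pESC-PGCLC against E9.5 PGC stayed under an adjusted p of 0.05 in one fit of all libraries (0.0307) and without any 1 library (0.0182 to 0.0421), and the other 10 did not. With replicate number added to the fit, the 5′ UTR of ESC-PGCLC against E9.5 PGC missed that threshold (adjusted p = 0.0569). So did the exons (0.0534), 3′-side shore (0.0625) and 5′-side island (0.0649) of pESC-PGCLC against E12.5 PGC.

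The rows without a level in every library are given as values. H19 exons differed by -40.6 points between the lone ESC-PGCLC library and the E9.5 PGC mean, and the Igf2 3′ UTR by -51.3 points between the lone pESC-PGCLC library and that mean. With 1 library in an arm, no difference between groups can be read from either.

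pESC-PGCLC and ESC-PGCLC, which differ in the origin of the starting cells, were compared next. The H19 promoter differed by -5.44 points in pESC-PGCLC, with both libraries below the ESC-PGCLC libraries, and did not pass the test (95% interval on the log2 odds scale -1.02 to 0.40, adjusted p = 0.609). The difference was -9.15 points without pESC-PGCLC replicate 1 and -1.73 points without replicate 2. Of 9 rows 0 were called, against 0.0948% of all rows, and 1 had an unadjusted p under 0.05. The H19 exons and the Igf2 3′ UTR had a level in too few libraries for this fit, and their values support no difference between groups. H19 exons were at 33.0% in 1 ESC-PGCLC library and 70% in 1 pESC-PGCLC library, and the Igf2 3′ UTR was at 82.2% and 62.9% in ESC-PGCLC and at 35% in 1 pESC-PGCLC library.

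On induction of either stem cell into PGCLCs 1 row was called, the 3′-side shore of Igf2, and neither call held under every alternative. From ESC to ESC-PGCLC the shore fell by 16.6 points (-1.53 on the log2 odds scale, SE 0.329, adjusted p = 0.0177), and from pESC to pESC-PGCLC it fell by 13.9 points (-1.29, SE 0.329, adjusted p = 0.0463). In each comparison this was 1 of the 9 rows tested, against 14.6% of 136848 rows called for ESC and 9.66% for pESC. The count is near those shares and does not set the locus apart. Most calls over all rows were of gains, with 18693 of 19923 higher for ESC and 12198 of 13219 for pESC, and among shores 261 of 2520 and 211 of 1857 called rows were lower. After centring the split over all rows turned, with 7115 of 71359 higher on the log2 odds scale for ESC and 5935 of 45543 for pESC. The median shift of all rows was 0.258 and 0.168 on the log2 odds scale, and after centring the shore's differences were -2.70 and -2.21. The call in ESC was not met without ESC replicate 1 (-9.84 points, adjusted p = 0.0189), ESC-PGCLC replicate 1 (adjusted p = 0.0889) or ESC-PGCLC replicate 2 (adjusted p = 0.0919). Without ESC replicate 2 the rows called in ESC were 2, the shore and the exons of Igf2, both lower. The call in pESC was lost without any 1 of its 4 libraries, with an adjusted p of 0.229 without pESC replicate 1, 0.0995 without pESC replicate 2, 0.182 without pESC-PGCLC replicate 1 and 0.228 without pESC-PGCLC replicate 2. On untransformed levels neither was called (adjusted p = 0.0763 and 0.154).

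The H19 promoter differed by -4.05 points between ESC-PGCLC and ESC (adjusted p = 0.687). After centring it passed the call there, at -16.8 points (adjusted p = 0.0089). Between pESC-PGCLC and pESC it differed by 5.23 points (adjusted p = 0.660), which became -1.12 points without pESC replicate 2, 11.6 without pESC replicate 1, 1.52 without pESC-PGCLC replicate 1 and 8.94 without pESC-PGCLC replicate 2. The Igf2 5′ UTR differed by -4.01 points between ESC-PGCLC and ESC (adjusted p = 0.0224), and missed the threshold without ESC-PGCLC replicate 1 (adjusted p = 0.132) or replicate 2 (0.0988). The difference between these inductions, tested as an interaction of origin and induction, was 9.28 points for the H19 promoter (95% interval on the log2 odds scale -0.42 to 1.49, adjusted p = 1). It was 2.93 points without pESC replicate 2, 15.6 without pESC replicate 1 and 5.57 without pESC-PGCLC replicate 1. Of the 9 rows 0 were called in the interaction and 0 had an unadjusted p under 0.05, against 0.0365% of all rows called.

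**Figure D4:**
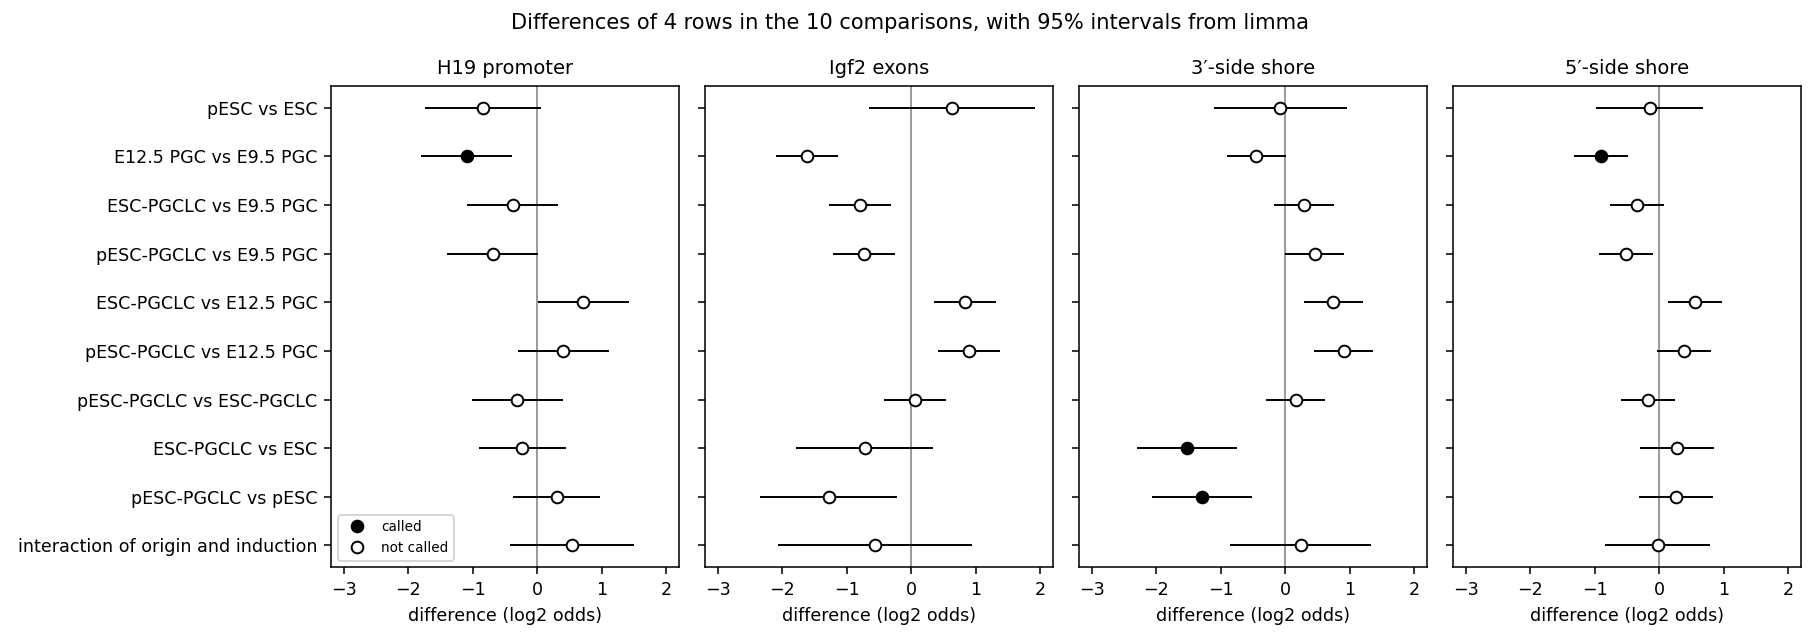
Differences between groups on the log2 odds scale for the H19 promoter, Igf2 exons and both shores in the 10 comparisons; points are limma estimates, lines their 95% intervals, and filled points are called. The 4 called differences are losses, at the H19 promoter and the 5′-side shore from E9.5 to E12.5 PGC and at the 3′-side shore on either induction. The calls at the H19 promoter and the 3′-side shore were not kept when some single libraries were left out.

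Rows of neighbouring genes were counted in the same comparisons. Of 17 other genes within 150 kb, 16 had rows, 34 in all, and several of them overlap the members. From E9.5 to E12.5 PGC 18 of 27 tested rows (66.7%) were called, all lower, against 49.6% of all rows, with a median difference of -15.7 points against -11.5 over all rows. An example is the promoter of Tnni2, a skeletal muscle troponin gene, which fell by 25.1 points from 65.2% (adjusted p = 8.293e-05). The Mir483 promoter inside Igf2 fell by 15.3 points from 19.96% (adjusted p = 0.00157). Against E9.5 PGC 12 rows (44.4%, against 29.8% of all rows) were called lower in ESC-PGCLC and 13 (48.1%, against 40.3%) in pESC-PGCLC. Against E12.5 PGC 11 (40.7%, against 22.8%) and 4 (14.8%, against 7.10%) were called higher. None of the tested rows was called on either induction, against 14.6% of all rows for ESC and 9.66% for pESC. Nor was any called for pESC against ESC, between the PGCLCs or in the interaction, where all rows had 0%, 0.0948% and 0.0365%.

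Other loci that inherit an imprint from sperm, Dlk1, Meg3, Rasgrf1 and Zdbf2, had 15 rows. From E9.5 to E12.5 PGC 7 were called lower (46.7%, against 49.6% of all rows). Against E9.5 PGC 7 were called lower in ESC-PGCLC (46.7%, against 29.8%) and 6 in pESC-PGCLC (40%, against 40.3%), so that the first and the last of these shares are near those of all rows. The promoter of Meg3, a maternally transcribed non-coding RNA with an arrangement like that of H19, fell by 12.55 points from 49.0% to 36.4% between the PGC stages (adjusted p = 0.00146). On induction of ESC 1 of the 15 rows was called (6.67%, against 14.6% of all rows), the introns of Dlk1, a Notch-family ligand, higher by 13.4 points (adjusted p = 0.0162). On induction of pESC 0 of 15 were called, against 9.66% of all rows. Relative to E12.5 PGC 0 were called in ESC-PGCLC and 0 in pESC-PGCLC, against 22.8% and 7.10%. For pESC against ESC, between the PGCLCs and in the interaction 0 were called, where all rows had 0%, 0.0948% and 0.0365%.

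The insulin-like growth factor pathway, with 18 genes of which 16 had 61 rows, covers ligands, receptors, binding proteins and RNA-binding proteins. From E9.5 to E12.5 PGC 27 of 58 tested rows (46.6%, against 49.6% of all rows) were called, all lower, with a median of -7.26 points against -11.5. Against E9.5 PGC 19 were lower and 1 higher in ESC-PGCLC (34.5% called, against 29.8%) and 23 were lower in pESC-PGCLC (39.7%, against 40.3%). Against E12.5 PGC 9 (15.5%, against 22.8%) and 1 (1.72%, against 7.10%) were higher. On induction 11 of 57 rows were called in ESC (19.3%, against 14.6%) and 3 in pESC (5.26%, against 9.66%), all higher. The called row of the H19 and Igf2 locus, 1 of 9 tested, was lower in both. That call was lost without some single libraries in ESC and without any 1 library in pESC. The introns of Igf1, the paralogous growth factor, rose by 30.0 points in ESC (adjusted p = 0.00197). The promoter of Igfbp7, a secreted binding protein, rose from 28.1% to 57.3% in ESC (adjusted p = 0.00598) and from 24.5% to 60.7% in pESC (adjusted p = 0.00263). Igf2r encodes the receptor that clears IGF2 and is itself imprinted through methylation inherited from the egg within an intron. Its introns were at 24.1% in ESC and 56.1% in pESC (unadjusted p = 0.000829 by limma, adjusted p = 0.876), and rose by 21.5 points on induction of ESC (adjusted p = 0.00480). Between pESC and ESC, between the PGCLCs and in the interaction, 0 rows of the pathway were called, against 0%, 0.0948% and 0.0365% of all rows.

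The rows whose levels followed H19 and Igf2 most closely over the 12 libraries were sought by the mean absolute difference. Among 18455 promoters the H19 promoter was closest to that of Mir675, at 1.18 points, whose 2 kb window shares 1004 bases and all 4 MspI sites with it and is the same measurement in large part. Next came Wfdc6b at 3.67 points, Krt84 at 4.01, Gm8973 at 4.13 and Gm13692 at 4.28. Wfdc6b encodes a whey acidic protein domain protein, Krt84 a hair keratin, and the last pair are pseudogenes. For Igf2 the highest gene row with a level in every library was its exons, and among 19000 exon rows the nearest were Pom121l2, a gene of the nucleoporin POM121 family, at 1.68 points, Mir219a-2, a microRNA, at 1.72, Ccr10, a chemokine receptor, at 1.75, Sstr5, a somatostatin receptor, at 1.81 and Gm31138, a non-coding RNA, at 1.82. These points share libraries, and the likeness is a description.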

How the data were processed

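Methylation was measured by RRBS in 12 libraries, 2 for each of 6 groups. The deposited values were methylation levels as fractions per gene part, CpG island or shore, made by the authors, who per their methods and processing notes aligned reads to mm10 with Bismark 0.16.3 and Bowtie2 and corrected levels for non-conversion. The coverage minimum and the promoter definition are not given in the sources used here, and no depth or confidence interval of a single level could be had. Levels were printed as percent. Each library held between 144375 and 166476 rows. For tests, fractions were converted to log2((level + 0.01)/(1 - level + 0.01)) and fitted with limma 3.58.1 in R 4.3.3, in 3 fits: ESC with pESC, the 4 PGC and PGCLC groups, and the stem cells with the PGCLCs. A fit used the rows with a level in each of its libraries and shared one spread. P-values were adjusted by Benjamini-Hochberg over all rows of the fit. The script was tested on simulated data. Comparisons that share a group are not independent. Island coordinates in the files begin at 0, and 1 was added to their starts. Sequence and annotation came from GRCm38, GENCODE M21 and RefSeq. Genes were named by the rule of all rows of the 2 genes, all islands and shores within 5 kb, the 5 nearest rows by likeness, and members of 3 lists. The members and lists were chosen with earlier results of these data known. Alternatives were an offset of 0.1, untransformed levels, centring on the library median, missing levels allowed, other sets of libraries in a fit, a replicate block and leaving out each library.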

Additional observations from a re-analysis of the deposited data

Results flagged for a closer look

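The exons of H19 differed from the stem cells in opposite directions after induction of ESC and of pESC. The level in the ESC-PGCLC library that had one, 33.0%, lay below both ESC libraries (59.8% and 48.1%), whereas that in the pESC-PGCLC library that had one, 70%, lay above both pESC libraries (55.3% and 54.5%), which gives a difference of differences of 36.1 points. Each PGCLC group had 1 library with a level, so the row was not in the main fit. The fit with missing levels allowed put this interaction at 2.15 on the log2 odds scale. With 1 library in each PGCLC group, that value supports no difference between groups.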

How the results depend on the processing

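The deposited levels hold no read counts, so the precision of single values is unknown. Centring each library on its own median moved the results most. It raised the rows of the locus called, of 9 tested, from 2 to 6 for E12.5 against E9.5 PGC, from 0 to 5 and 6 for ESC-PGCLC and pESC-PGCLC against E9.5 PGC, and from 1 to 8 and 5 on induction of ESC and pESC. Over all rows, centring called 63589, 29617 and 48933 of 137202 in the first 3 of these comparisons. On induction it called 71359 of 136848 rows for ESC and 45543 for pESC, against 19923 and 13219 without centring. Such calls describe a row relative to its library's median, and a row near 0% can meet the 10-point minimum through that shift. The 5′-side island, at 3.37% in E9.5 PGC and 2.33% in E12.5 PGC, differed by -1.04 points before centring and by 14.95 points after it. On the log2 odds scale centring turned the H19 promoter to 0.018, the 5′-side island to 0.71 and the 5′-side shore to 0.22 for E12.5 against E9.5 PGC. The H19 promoter difference in centred points was still below 0 there, at -2.83. On the log2 odds scale centring also turned the H19 promoter to 0.28 for ESC-PGCLC against E9.5 PGC, the H19 promoter to 0.11, Igf2 exons to 0.076 and the 5′-side shore to 0.29 for pESC-PGCLC against E9.5 PGC, and the H19 promoter to -0.62 for pESC-PGCLC against pESC. On induction of ESC centring brought the H19 promoter past the call, at -1.41 on that scale. With a level required in at least 1 library of every group, the rows called were 1, 1 and 0 for ESC-PGCLC against E9.5 PGC, pESC-PGCLC against E9.5 PGC and pESC-PGCLC against pESC, the first pair resting on a lone PGCLC library each, which supports no difference between groups. With an offset of 0.1 the rows called on induction of pESC were 0, and with untransformed levels they were 0 on induction of ESC and 0 of pESC. Leaving out each library in turn gave 1 to 2 rows called for E12.5 against E9.5 PGC, 0 to 1 for pESC-PGCLC against E9.5 PGC, 0 to 2 on induction of ESC and 0 to 0 on induction of pESC. The H19 promoter difference on induction of pESC then ranged from -0.063 to 0.66 on the log2 odds scale.

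A replicate block was fitted although the replicate numbers are not stated to mark a shared batch. It kept the call and direction of 92 of 92 differences of the locus, with 0 rows called for pESC against ESC, 2 for E12.5 against E9.5 PGC and 1 on each induction. Same-numbered libraries of different groups correlated between -0.0573 and 0.432 in their deviations from the group means. The highest value was that of ESC with pESC, and the next was 0.139, of E9.5 PGC with ESC-PGCLC. For pESC against ESC the block moved the unadjusted limma p of the H19 promoter from 0.0623 to 0.0392, and the row was still not called. Of the 92 differences 27 are reported singly, and of 743 settings of the others 676 kept direction and call, 47 turned the direction and 20 gained a call. By correlation in place of the mean absolute difference, 2 of 5 rows named beside H19 and 0 of 5 beside Igf2 were the same.

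Over all rows, centring gave 23524 of 29617 called rows higher on the log2 odds scale for ESC-PGCLC and 37319 of 48933 for pESC-PGCLC against E9.5 PGC, and 6308 of 8188 and 762 of 1136 against E12.5 PGC, where 31238 and 9740 were called without it. One fit of all 12 libraries called 13297 and 619 rows in this last pair. For pESC-PGCLC against ESC-PGCLC the 130 called rows became 1337 with the offset of 0.1, 1771 untransformed, 259 with missing levels allowed, 85 in one fit and 38 with the replicate block. The 50 of the interaction became 10, 15, 87 and 82 in the first 4 of these. For pESC against ESC the 0 became 32 over rows with a level in all 12 libraries and 70 in one fit. Leaving out a library gave 0 to 742 rows for pESC against ESC, 10 to 1793 for pESC-PGCLC against E12.5 PGC, 30 to 397 between the PGCLCs, 12306 to 35492 on induction of ESC, 7471 to 9886 of pESC and 0 to 165 for the interaction.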
